A study of Arabidopsis thaliana with 18 samples.

Results

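These results concern 75 nuclear genes of Arabidopsis thaliana whose transcript level was high at 1 h on jasmonic acid (JA) and lower again at 3 h, in both the ecap-2 mutant and the wild type. They were chosen from their own measured levels. In each genotype the group mean of FPKM + 1 at 1 h had to be at least 1.8 times that at 0 h and at least 1.8 times that at 3 h, and the WT 1 h mean had to reach 3 FPKM. FPKM scales fragment counts by transcript length and library size, so levels are per length. Of 22209 listed genes, 14825 met the floor, 630 of those also met the rise in both genotypes and 77 met the decline as well. The genes LOX3, LOX4, AOC3 and JAZ7 were set aside by name, and since AOC3 and JAZ7 were among the 77, this left 75. The rise was met in both genotypes and the decline in neither by 480 genes. RNA came from whole seedlings grown for 6 days and moved to plates with 50 µM JA for 0, 1 or 3 h. The 6 groups were ecap-2 at 0, 1 and 3 h and WT (Col-0) at 0, 1 and 3 h, with 3 libraries each, 18 in all. The 0 h seedlings are labelled untreated, and the labels do not say whether they were moved to new plates. Growth was described alike for both genotypes. No seedlings moved to plates without JA were measured, so JA, transfer and time of day cannot be told apart. The labels do not state whether libraries of a group were grown apart, and the spread behind each p-value may then be technical only. In whole seedlings, fewer cells of a type and less RNA per cell cannot be told apart.

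JA is converted in the plant to its active conjugate with isoleucine, which joins the receptor COI1 to JAZ repressors and sends the repressors for degradation. That frees basic helix-loop-helix (bHLH) activators such as MYC2, which bind G-box sequences and turn on JA-responsive genes, among them the genes of JA synthesis, of JA breakdown and of the JAZ repressors themselves. JAZ proteins act with co-repressors of the TOPLESS family, and the series title names ECAP as an adaptor between JAZ proteins and the co-repressor TPR2. Short-lived transcripts are common among early responses to hormones, wounding and touch.

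The stretch before the start of the genes was read from the RefSeq TAIR10.1 genome. The G-box CACGTG was sought on both strands from 250 bases before to 50 bases after each annotated start, a window of 300 bases. It was present in 13 of the 75 windows (17.3%), against 8.42% of the 22122 listed genes with a window. MC7 has 2 G-boxes, at -83 and -11 from its start. The one at -83 lies inside the neighbouring tRNA gene AT1G79300, and the one at -11 does not. Among the genes with a G-box, 5 encode transcription factors or a JAZ family protein, and these are shown because JA signalling acts through G-box binding. Each line gives 46 bases on the strand of the gene, all before its start, with the G-box in capitals.
AT3G22275 (JAZ family protein), chr3:7879880-7879925, minus strand: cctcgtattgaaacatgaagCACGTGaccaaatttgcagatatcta
AT4G29930 (bHLH protein), chr4:14643923-14643968, plus strand: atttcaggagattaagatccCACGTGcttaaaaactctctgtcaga
AT4G37850 (bHLH protein), chr4:17797955-17798000, minus strand: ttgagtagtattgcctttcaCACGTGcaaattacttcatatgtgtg
RRTF1 (redox responsive transcription factor), chr4:16451722-16451767, plus strand: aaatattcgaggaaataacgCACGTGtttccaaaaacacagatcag
BBX30 (B-box zinc finger protein), chr4:8708749-8708794, plus strand: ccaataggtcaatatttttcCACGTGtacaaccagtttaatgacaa
The first base of the G-box lay 95 bases before the start in AT3G22275, 51 in AT4G29930, 79 in AT4G37850, 134 in RRTF1 and 72 in BBX30.

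Other motifs were sought in the same windows. The W-box cores TTGACC and TTGACT, bound by WRKY factors, were in 33 windows (44% against 32.7% of listed genes). The auxin element TGTCTC was in 12 (16% against 14.1%) and the evening element core AATATCT in 7 (9.33% against 11.6%). The rapid stress response element CGCGTT was in 4 (5.33% against 3.66%), the CAMTA sites ACGCGT and CCGCGT in 4 (5.33% against 4.71%) and the DRE GCCGAC in 1 (1.33% against 3.43%). The GCC-box AGCCGCC was in 0 of 75, against 0.75%. CGCGTT and ACGCGT can share bases. A match describes letters and is not a binding site. In gene structure, 21 of the 75 genes had a single exon (28% against 16.2% of 17790 tested genes with an annotation). The median exon number was 3 against 4, and the median spliced length 1624 against 1672 bases.

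Each library had 20136 to 20520 genes above 0, and the read depth behind an FPKM is unknown. The ecap-2 libraries summed to 760383 to 801831 FPKM at 0 and 1 h and 853858 to 912834 FPKM at 3 h, against 687996 to 765209 FPKM for WT. AT3G58110, which general knowledge gives as ECAP, measured 2.34 to 2.89 FPKM in ecap-2 libraries and 12.3 to 16.1 FPKM in WT libraries. Both seedling tissues were present. The 6 root markers, nearly all of whose sum is PYK10, summed to 2689 to 2996 FPKM at 0 and 1 h and 4488 to 5117 FPKM at 3 h in ecap-2. In WT the sum was 2163 to 2668 FPKM at 0 and 1 h and 3942 to 4137 FPKM at 3 h. It was thus higher at 3 h than at 0 h in both genotypes and higher in ecap-2 at each time, and its part in the 3 h changes of the 75 genes was not tested. Single root markers differed. Over all times EXPA7 was higher in ecap-2 (27.0 to 51.8 against 17.7 to 23.2 FPKM in WT). IRT1 reached 22.5 FPKM in ecap-2 and 73.3 FPKM in WT, and SCR, SHR and COBL9 overlapped between genotypes. Of 5 photosynthetic markers, RBCS1A and PSBO1 are in the tables, and their sum was 17194 to 22275 FPKM in ecap-2 and 11827 to 14115 FPKM in WT. Most of that sum was RBCS1A. PSBO1 overlapped between genotypes, with 2480 to 3426 FPKM in ecap-2 and 2277 to 2962 FPKM in WT. The flower markers AG and AP3 together stayed at or below 0.509 FPKM in ecap-2 and 0.343 FPKM in WT. The seed markers CRA1, CRU3 and OLEO1 were not low throughout. Their sum varied widely between libraries, from 0.289 to 44.2 FPKM in ecap-2 and from 0.824 to 44.9 FPKM in WT. At 0 h it was 19.1 to 27.2 FPKM in WT. At 1 h it was 0.824 to 2.61 FPKM in WT and 7.75 to 12.9 FPKM in ecap-2. The part of this seed signal in the changes of the 75 genes was not tested.

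Across the 75 genes the ratio of mean FPKM + 1 at 1 h to that at 0 h had a median of 4.2 in ecap-2 (range 1.84 to 103.5) and 4.01 in WT (1.805 to 61.7). The ratio of 1 h to 3 h had a median of 2.39 in ecap-2 and 2.48 in WT. These are the values that chose the genes and are given as a description. Levels at 1 h ran from 2.58 to 754 FPKM in ecap-2 and from 3.33 to 513 FPKM in WT. The largest ratios of 1 h to 0 h belonged to FAMT, TAT3, AT3G22275, MDHAR and AT5G61890. The smallest belonged to GH9B8, WRKY22, AT1G05660, SAT32 and AT2G43880. The genes nearest the fold threshold were VTC5, AT2G43880 and AT1G64380 inside it, with smallest ratios of 1.802, 1.805 and 1.81, and GA2OX6, ABR1 and MYB111 outside it, at 1.78, 1.78 and 1.77. Nearest the level floor were GA20OX5, AT1G26730 and AT4G25433 inside, at 3.33, 3.90 and 3.98 FPKM in WT at 1 h, and GA2OX7, AT5G03204 and MYB15 outside, at 2.38, 1.65 and 1.58 FPKM.

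**Figure D1:**
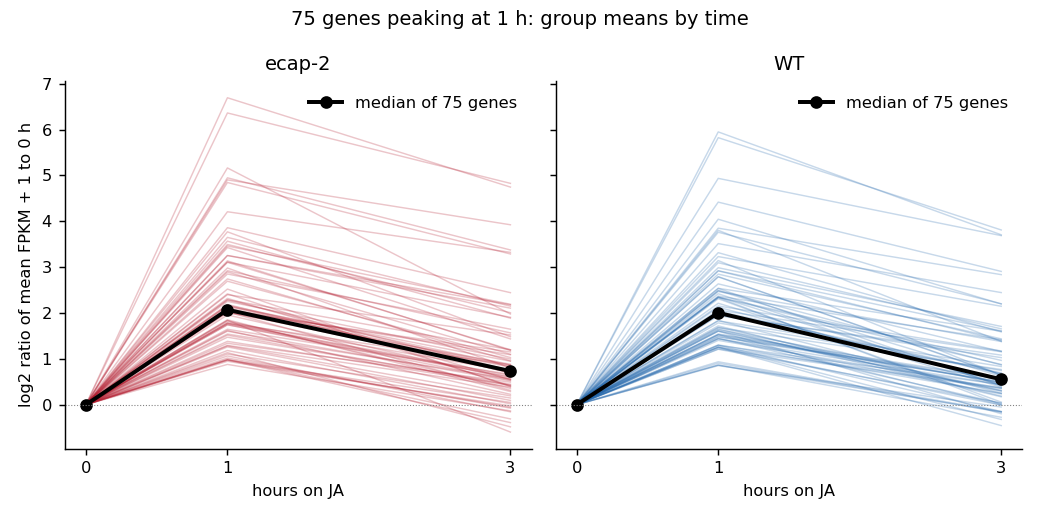
Log2 ratio of the group mean of FPKM + 1 to the 0 h mean of the same genotype (vertical axis) at 0, 1 and 3 h on JA, for ecap-2 on the left and WT on the right; each thin line is 1 of the 75 genes and the thick line their median. Every line peaks at 1 h because the genes were chosen so, and many lines stay above 0 at 3 h, most of all those with the highest peaks.

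Of the 75 genes, 5 belong to JA turnover, JAZ repression or known JA markers, and they had the highest peaks of the 10 groups formed here by function, with median ratios of 28.7 in ecap-2 and 30.6 in WT. TAT3, a tyrosine aminotransferase widely used as a JA marker, measured 1.34, 0.763 and 1.54 FPKM at 0 h, 189.5, 193 and 160.4 at 1 h and 58.7, 69.2 and 57.4 FPKM at 3 h in ecap-2 libraries. In WT libraries it measured 1.39, 1.43 and 0.512 FPKM at 0 h, 132, 133 and 123 at 1 h and 27.3, 26.1 and 26.2 FPKM at 3 h. The 3 h libraries lay far below the 1 h libraries yet well above every 0 h library. FAMT, a farnesoic acid carboxyl methyltransferase, measured 0.738, 0.105 and 0.797 FPKM at 0 h, 159, 145 and 174 at 1 h and 34.4, 49.2 and 37.8 FPKM at 3 h in ecap-2 libraries. Its WT libraries held 1.13, 0.985 and 0.284 FPKM at 0 h, 90.8, 94.1 and 117 at 1 h and 23.9, 25.2 and 23.6 FPKM at 3 h. It had the same shape, with the ecap-2 libraries above the WT ones at 1 and at 3 h. AT3G22275, the JAZ family protein, measured 0, 0.1704 and 0.116 FPKM at 0 h, 28.1, 26.8 and 36.5 at 1 h and 10.9, 9.34 and 8.804 FPKM at 3 h in ecap-2 libraries. In WT it measured 0.195, 0.1398 and 0 FPKM at 0 h, 37.6, 18.5 and 42.9 at 1 h and 10.6, 17.2 and 12.2 FPKM at 3 h. It was close to 0 before JA in both genotypes, and its WT 1 h libraries were spread widely.

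CYP94C1 and CYP94B3 are cytochrome P450 enzymes that oxidize the active JA-isoleucine conjugate and so help to switch the signal off. CYP94C1 measured 1.31, 1.403 and 1.499 FPKM at 0 h, 28.4, 29.3 and 29.7 at 1 h and 9.13, 11.8 and 8.04 FPKM at 3 h in ecap-2 libraries. Its WT libraries measured 0.925, 0.9101 and 1.21 FPKM at 0 h, 16.6, 20.3 and 20.2 at 1 h and 4.42, 6.01 and 4.73 FPKM at 3 h. At each of the 3 times the ecap-2 libraries were all above the WT ones. CYP94B3 measured 0.886, 1.63 and 2.0 FPKM at 0 h, 24.1, 21.3 and 23.3 at 1 h and 11.7, 11.01 and 8.33 FPKM at 3 h in ecap-2 libraries. WT libraries gave 1.31, 1.86 and 2.35 FPKM at 0 h, 20.1, 17.2 and 21.1 at 1 h and 6.77, 6.93 and 6.36 FPKM at 3 h. The genotypes lay apart at 3 h and overlapped at 0 h. At 1 h the lowest ecap-2 library was just above the highest WT library, and the difference did not pass (0.23 ± 0.16, adjusted p = 0.27). JAZ7, one of the genes set aside by name, averaged 0.199, 12.8 and 2.05 FPKM at 0, 1 and 3 h in ecap-2 and 0.456, 21.2 and 9.37 FPKM in WT.

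**Figure D2:**
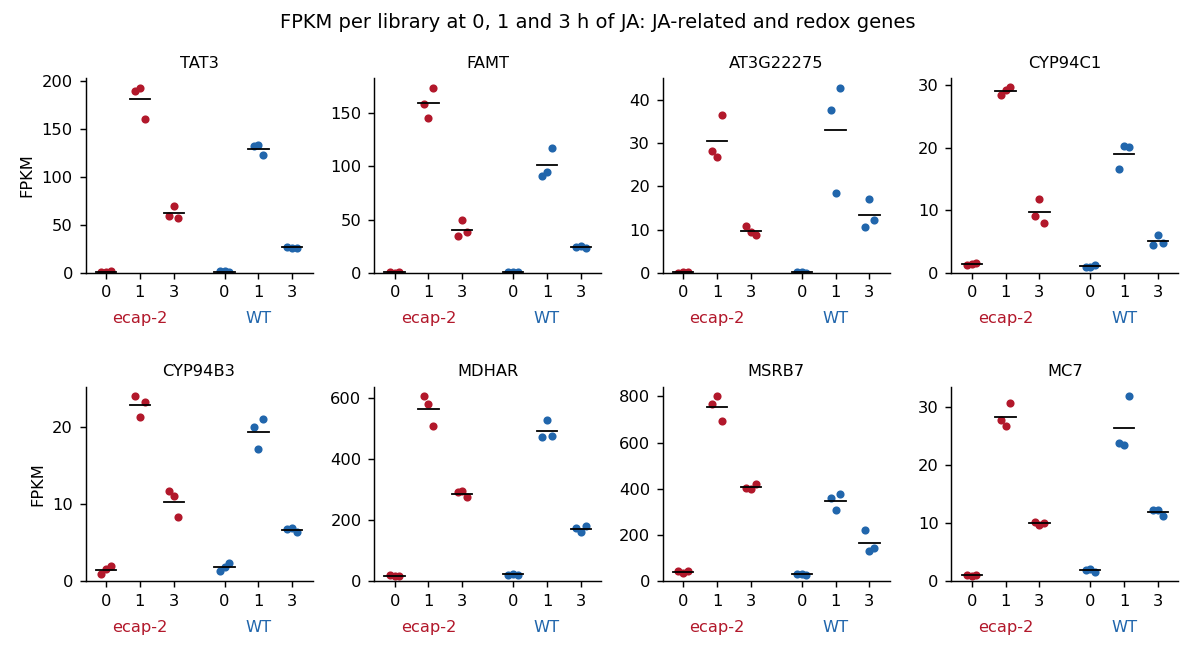
FPKM in each library (vertical axis, linear, from 0) at 0, 1 and 3 h on JA, ecap-2 in red on the left and WT in blue on the right of each panel; points are libraries and bars are means of 3. In all 8 genes the 3 h points lie between the 0 h and the 1 h points in both genotypes.

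Ascorbate and redox genes held some of the most abundant members. MDHAR, a monodehydroascorbate reductase that regenerates ascorbate, measured 19.3, 15.8 and 18.7 FPKM at 0 h, 607, 580.1 and 508 at 1 h and 291, 294 and 274 FPKM at 3 h in ecap-2 libraries. WT libraries measured 21.95, 25.1 and 19.2 FPKM at 0 h, 471, 528 and 476 at 1 h and 173, 161 and 182 FPKM at 3 h. Its genotypes were close at 1 h and lay apart at 3 h, where ecap-2 was higher. MSRB7, a methionine sulfoxide reductase that repairs oxidized protein, measured 42.1, 35.2 and 42.3 FPKM at 0 h, 765, 802 and 694 at 1 h and 405, 397 and 421 FPKM at 3 h in ecap-2 libraries. In WT libraries it measured 31.7, 32.4 and 24.8 FPKM at 0 h, 360.4, 308 and 377 at 1 h and 222, 131 and 144 FPKM at 3 h. The ecap-2 libraries exceeded all WT libraries at each time, by most at 1 and 3 h. GSTU5, a glutathione S-transferase, was already high before JA: it averaged 170.4 ± 21.9, 525 ± 50.8 and 199.6 ± 13.3 FPKM at 0, 1 and 3 h in ecap-2 (SD, n = 3). In WT it averaged 209 ± 7.05, 513 ± 51.6 and 188 ± 16.04 FPKM. VTC5, a GDP-L-galactose phosphorylase of ascorbate synthesis, averaged 29.3 ± 1.88, 75.6 ± 6.86 and 41.5 ± 2.82 FPKM in ecap-2 and 32.7 ± 1.99, 97.1 ± 0.847 and 48.8 ± 4.98 FPKM in WT. DIN9, a mannose-6-phosphate isomerase, peaked at 20.5 ± 3.49 FPKM in ecap-2 and 21.7 ± 1.78 FPKM in WT. GSTU5 was near its 0 h level by 3 h in both genotypes, unlike MDHAR and MSRB7. For DIN9 the log2 change at 3 h against 0 h was 0.09 ± 0.12, adjusted p = 0.55 in ecap-2 and 0.36 ± 0.12, adjusted p = 0.018 in WT, where the call ended without WT 0 h replicate 3 or WT 3 h replicate 2, with adjusted p up to 0.087.

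Transcription factors were the largest group, 15 of the 75, with median ratios of 1 h to 0 h of 3.58 in ecap-2 and 3.88 in WT. They came from the ERF and DREB, AP2, WRKY, B-box, LOB, GRAS and bHLH families, besides AT5G01380, a homeodomain-like superfamily protein by its RefSeq product. SMZ, an AP2-type repressor of flowering, had the highest WT level at 1 h among them, with 83.1 ± 15.8 FPKM in ecap-2 and 101 ± 10.8 FPKM in WT. WRKY18, WRKY22 and WRKY48, regulators of defence genes, peaked at 30.3 ± 4.24, 20.2 ± 0.739 and 10.4 ± 0.367 FPKM in ecap-2, against 35.8 ± 6.76, 16.8 ± 1.44 and 5.81 ± 0.616 FPKM in WT. HAM4, a GRAS factor, peaked at 20.7 ± 3.22 FPKM in ecap-2 and 17.1 ± 3.56 FPKM in WT. The 3 h mean of WRKY22 was under its 0 h mean in both genotypes, while that of SMZ was above it.

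AT5G61890, of the AP2/ERF type by its RefSeq product, was near 0 before JA and measured 36.9, 27.1 and 42.005 FPKM at 1 h in ecap-2. The WT values were 11.4, 11.8 and 17.03 FPKM at 1 h. By 3 h it had 2.99 ± 0.7998 FPKM in ecap-2 and 1.69 ± 0.741 FPKM in WT. The 1 h libraries of ecap-2 all lay above those of WT. RRTF1 averaged 3.11 ± 0.734 FPKM at 1 h in ecap-2 and 4.42 ± 1.62 FPKM in WT, and under 1 FPKM at 0 and at 3 h in both. The bHLH gene AT4G29930 measured 2.27, 3.196 and 3.67 FPKM at 0 h, 48.1, 45.1 and 47.4 at 1 h and 14.6, 13.8 and 13.5 FPKM at 3 h in ecap-2. In WT libraries it measured 4.56, 7.15 and 7.69 FPKM at 0 h, 64.3, 56.9 and 73.5 at 1 h and 10.8, 10.8 and 10.4 FPKM at 3 h. It started lower in ecap-2 and ended higher. BBX30 varied widely between libraries of a group, with 42.5, 26.1 and 18.3 FPKM at 1 h in ecap-2 and 27.05, 10.4 and 10.8 FPKM in WT. The related BBX31 varied likewise, with 14.6, 8.04 and 6.44 FPKM at 1 h in ecap-2 and 13.7, 6.11 and 6.25 FPKM in WT. For both genes replicate 1 was the highest library at 0 h and at 1 h in each genotype, though the labels do not say that libraries of the same number share anything.

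Other nuclear regulators numbered 6. EDA25, whose RefSeq product name is CCAAT-binding factor, peaked at 150.1 ± 13.8 FPKM in ecap-2 and 168 ± 13.6 FPKM in WT. PRN, the cupin protein pirin, peaked at 116 ± 15.02 FPKM in ecap-2 and 158 ± 20.7 FPKM in WT. SRO5, related to poly(ADP-ribose) polymerases, peaked at 6.07 ± 1.57 FPKM in ecap-2 and 8.66 ± 1.05 FPKM in WT. SAT32, of the interferon-related developmental regulator family, stands out for its course after the peak. It measured 56.3, 63.7 and 51.3 FPKM at 0 h, 127, 128 and 125 at 1 h and 37.7, 41.3 and 42.7 FPKM at 3 h in ecap-2. WT libraries held 112, 97.8 and 68.8 FPKM at 0 h, 178, 181 and 151 at 1 h and 81.1, 90.04 and 78.7 FPKM at 3 h. In ecap-2 every 3 h library was below every 0 h library, while in WT these times overlapped.

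Signalling genes numbered 10. MSL9, a mechanosensitive channel, averaged 90.5 ± 2.66 FPKM at 1 h in ecap-2 and 61.8 ± 5.65 FPKM in WT. The kinases MPK19 and MAPKKK15 peaked at 50.3 ± 2.402 and 4.57 ± 0.864 FPKM in ecap-2, against 61.4 ± 4.82 and 5.43 ± 1.51 FPKM in WT. PUB22, a U-box ubiquitin ligase that dampens immune signalling, peaked at 12.3 ± 2.46 FPKM in ecap-2 and 10.9 ± 1.59 FPKM in WT. RD20, a caleosin, peaked at 9.58 ± 3.25 FPKM in ecap-2 and 14.7 ± 4.72 FPKM in WT. The LRR protein gene AT2G34930 measured 0.244, 0.00212 and 7.82 FPKM at 3 h in ecap-2, so that a single library sets that mean.

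Transporters numbered 6. GTR1, a transporter of glucosinolates, the sulphur-rich defence compounds of this plant family, measured 50.1, 47.4 and 47.4 FPKM at 0 h, 236, 205 and 217 at 1 h and 72.6, 97.2 and 66.2 FPKM at 3 h in ecap-2. In the WT libraries it stood at 34.1, 36.9 and 30.1 FPKM at 0 h, 99.6, 104 and 120.3 at 1 h and 37.2, 42.8 and 34.2 FPKM at 3 h. The ecap-2 libraries were above the WT libraries at each of the 3 times. ABCG35, an ABC transporter, and ProT3, a proline transporter, peaked at 45.6 ± 3.55 and 23.1 ± 6.41 FPKM in ecap-2, against 47.3 ± 5.26 and 42.8 ± 2.73 FPKM in WT. Genes of the cell wall and phenylpropanoid pathway numbered 7 and had the lowest median ratios of 1 h to 0 h, 2.45 in ecap-2 and 2.40 in WT. TBL26 and 4CL5 had the largest ratios among them, the first 9.53 in ecap-2 and 16.5 in WT and the second 7.58 in ecap-2 and 5.07 in WT. 4CL5 is a 4-coumarate:CoA ligase, which activates precursors of lignin and flavonoids. GH9B8, a glycosyl hydrolase, and LAC5, a laccase, peaked at 26.3 ± 3.105 and 15.7 ± 1.14 FPKM in ecap-2, against 23.2 ± 2.17 and 16.5 ± 1.94 FPKM in WT.

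Among 7 other enzymes, TPPG, a trehalose-phosphate phosphatase, peaked at 55.5 ± 8.095 FPKM in ecap-2 and 42.4 ± 5.56 FPKM in WT. Among 5 stress and cell death proteins, the dehydration-linked ERD7 peaked at 127 ± 8.26 FPKM in ecap-2 and 104 ± 3.44 FPKM in WT. MC7, a metacaspase (a cysteine protease), peaked at 28.3 ± 2.08 FPKM in ecap-2 and 26.3 ± 4.805 FPKM in WT. The other 9 genes are uncharacterized or broadly annotated. AT4G27654 was listed at 0 in each WT 0 h library and averaged 4.16 ± 0.696 FPKM in WT at 1 h. AT5G56985 and AT5G56980 overlap by 429 bases on opposite strands. Without a stated strand setting, reads from those shared bases cannot be told apart. In all, 17 of the 75 genes overlap another listed gene, by 6 bases in AT3G22275 and up to 905 bases in SRO5. Only reads from the shared bases are affected. The overlap covers the whole of AT5G56985 (429 bases) and of AT2G22880 (345 bases).

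By 3 h most of the 75 genes had not come back to their 0 h level, so "rising only at 1 h" holds for the peak and not for the whole course. The rule bounded the 0 h and 3 h means against the 1 h mean and set no order between them, but it used both means, so the values at 3 h against 0 h are not independent of how the genes were chosen and describe these genes only. At 3 h against 0 h in ecap-2, 52 of the 75 genes were higher and 2 lower (69.3% and 2.67%; over all 17835 tested genes 23.1% were higher and 22.2% lower). In WT 50 were higher and 1 lower (66.7% and 1.33%; over all tested genes 21.4% and 20.1%). The median log2 change of the 75 was 0.71 in ecap-2 and 0.54 in WT, against -0.0069 and -0.0012 for all tested genes. Of the rise above the 0 h mean, a median of 21.1% was left at 3 h in ecap-2 and 19.8% in WT, shares whose ceiling the rule sets by its decline. The genes higher at 3 h in both genotypes numbered 45 (60%, against 15.8% of all tested genes), 0 were lower in both (against 13.8%), and 15 passed in neither (20%, against 43.3%). All tests were two-sided limma tests on log2(FPKM + 1), Benjamini-Hochberg adjusted over all tested genes at 0.05, which understate changes of low genes.

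**Figure D3:**
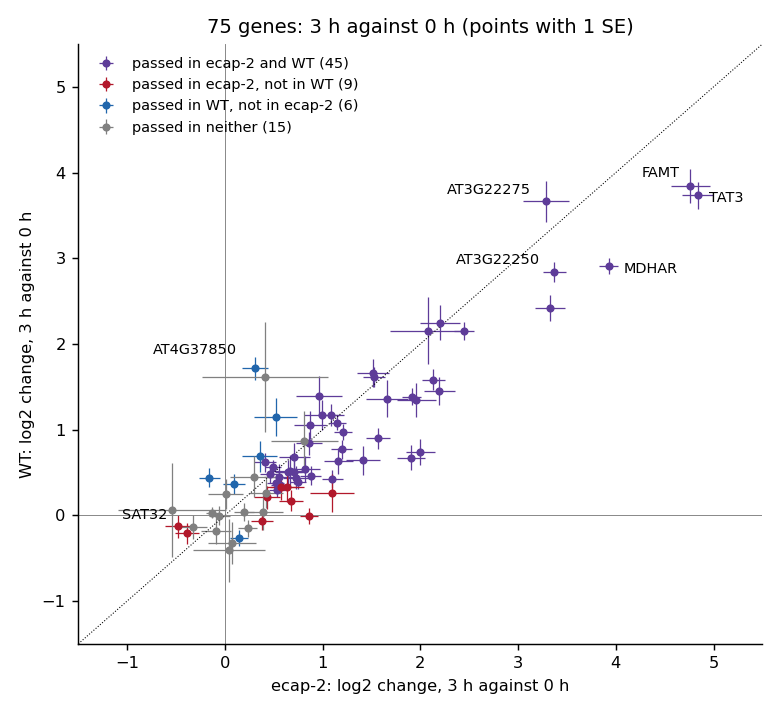
Log2 change at 3 h against 0 h in ecap-2 (horizontal axis) and in WT (vertical axis) for the 75 genes, with 1 SE; colour shows in which genotype the change passed the threshold, and the dotted line marks equal change. Most points lie above 0 on both axes, TAT3, FAMT, AT3G22275 and MDHAR farthest out, and SAT32 below 0 in ecap-2.

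All 5 JA genes were higher at 3 h than at 0 h in both genotypes. TAT3 had a log2 change of 4.84 ± 0.16, adjusted p = 5.4e-13 in ecap-2 and 3.74 ± 0.16, adjusted p = 1.4e-11 in WT (± SE throughout). FAMT changed by 4.76 ± 0.20, adjusted p = 2.9e-11 in ecap-2 and 3.84 ± 0.20, adjusted p = 4e-10 in WT. For AT3G22275 the change was 3.28 ± 0.24, adjusted p = 1.6e-08 in ecap-2 and 3.66 ± 0.24, adjusted p = 4.7e-09 in WT. CYP94C1 and CYP94B3 changed by 2.13 ± 0.12 and 2.19 ± 0.16 in ecap-2 and 1.58 ± 0.12 and 1.45 ± 0.16 in WT. The redox genes split: MDHAR changed by 3.93 ± 0.10, adjusted p = 1.1e-14 in ecap-2 and 2.91 ± 0.10, adjusted p = 3.1e-13 in WT, and MSRB7 by 3.33 ± 0.15, adjusted p = 4.7e-11 in ecap-2 and 2.42 ± 0.15, adjusted p = 2.7e-09 in WT. GSTU5, by contrast, had 0.23 ± 0.10, adjusted p = 0.068 in ecap-2 and -0.15 ± 0.10, adjusted p = 0.24 in WT. The glycosyltransferase gene AT3G22250 changed by 3.37 ± 0.12, adjusted p = 5.2e-13 in ecap-2 and 2.84 ± 0.12, adjusted p = 4.9e-12 in WT. MC7 changed by 2.44 ± 0.10, adjusted p = 5.1e-12 in ecap-2 and 2.15 ± 0.10, adjusted p = 2.7e-11 in WT.

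Transcription factors were higher at 3 h in 9 of 15 cases in ecap-2 and 11 of 15 in WT, signalling genes in 8 of 10 in each genotype, transporters in 5 of 6 in ecap-2 and 3 of 6 in WT, and cell wall genes in 4 of 7 in ecap-2 and 2 of 7 in WT. Of all 75 genes 69.3% were higher at 3 h in ecap-2 and 66.7% in WT, and of all tested genes 23.1% and 21.4%. None of these functional groups was tested as a group. SMZ, for example, changed by 0.87 ± 0.17, adjusted p = 0.0005 in ecap-2 and 1.05 ± 0.17, adjusted p = 9.2e-05 in WT. The lower genes were SAT32 and AT5G10410 in ecap-2 and AT1G05660, a pectin lyase-like gene, in WT. SAT32 fell in ecap-2, with a log2 change of -0.48 ± 0.13, adjusted p = 0.007, while in WT its change was -0.13 ± 0.13, adjusted p = 0.46. AT5G10410 had -0.39 ± 0.12, adjusted p = 0.016 in ecap-2, and without ecap-2 0 h replicate 3 the adjusted p was 0.071. AT1G05660 had -0.27 ± 0.09, adjusted p = 0.027 in WT. Its call ended without WT 0 h replicate 2 (adjusted p = 0.16), WT 3 h replicate 1 (0.059) or WT 3 h replicate 2 (0.11). Genes with the smallest ratios of 3 h to 0 h besides SAT32 and AT5G10410 were BBX30, BBX31 and WRKY22. WRKY22 had a log2 change of -0.32 ± 0.14, adjusted p = 0.07 in ecap-2 and -0.14 ± 0.14, adjusted p = 0.47 in WT.

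Between the genotypes the 75 genes went both ways, and more of them were lower in ecap-2 at 0 h and higher in ecap-2 at 3 h. At 0 h, 8 were higher and 20 lower in ecap-2 than in WT (10.7% and 26.7%; all tested genes 21.2% and 23%). At 1 h, 21 were higher and 16 lower (28% and 21.3%; all tested genes 17.9% and 21.9%). At 3 h, 26 were higher and 13 lower (34.7% and 17.3%; all tested genes 28.8% and 28.6%). Median log2 differences of the 75 were -0.08, 0.03 and 0.10 at 0, 1 and 3 h. After rescaling libraries to a common total FPKM the calls were 3 higher and 24 lower at 0 h, 17 and 19 at 1 h and 13 and 26 at 3 h, so the balance at 1 and 3 h turns with the scaling. That rescaling moved the median log2 difference of all genes by -0.11, -0.10 and -0.20 at 0, 1 and 3 h. Quantile normalization gave 11 higher and 15 lower at 0 h. The photosynthetic and root marker sums, mostly RBCS1A and PYK10, were also higher in ecap-2, as given above, though not every single marker was. Their part in these differences was not tested. Higher in ecap-2 at all 3 times were 6 genes (8%, against 13% of all tested genes) and lower at all 3 times 6 genes (8%, against 15.2%), and 19 passed at no time (25.3%, against 31.5%).

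**Figure D4:**
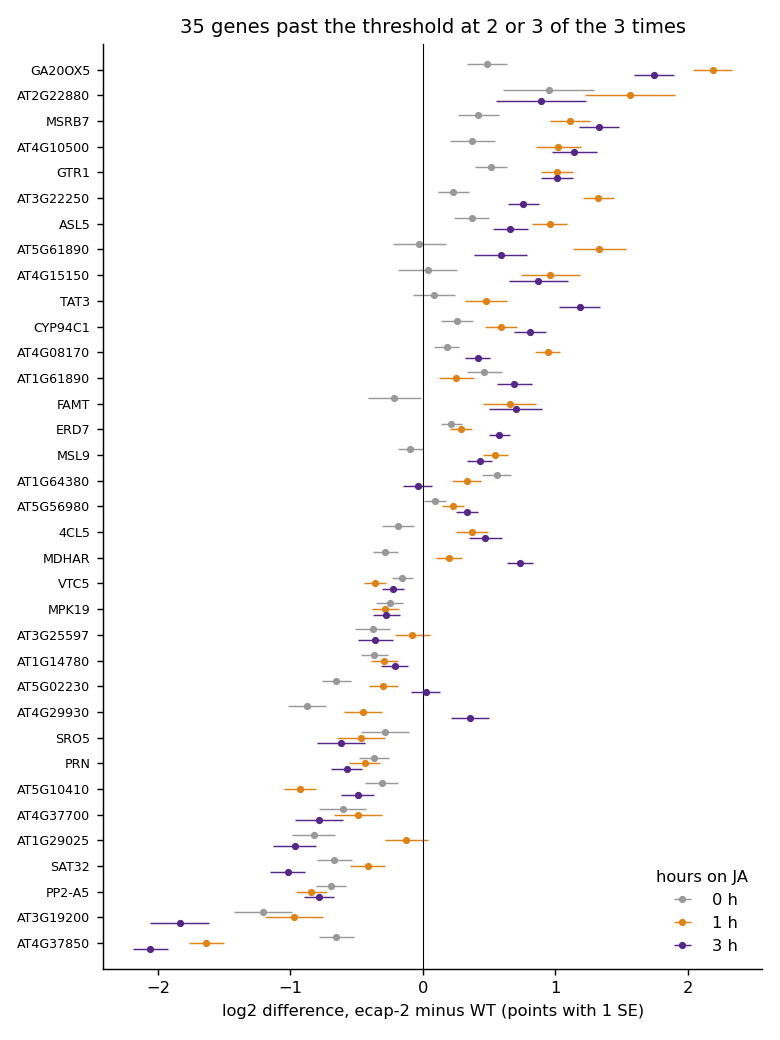
Log2 difference between ecap-2 and WT (horizontal axis, positive where ecap-2 is higher, with 1 SE) for the 35 of the 75 genes that passed the threshold at 2 or 3 of the 3 times, one row a gene, coloured by time on JA. Of these, 20 had a mean difference above 0, led by GA20OX5, and 15 below 0, led by AT4G37850.

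GA20OX5, of the gibberellin 20-oxidase family, had the highest log2 difference of ecap-2 over WT at 1 and at 3 h among the 75. It measured 0.589, 0.8395 and 0.852 FPKM at 0 h, 21.9, 19.6 and 14.99 at 1 h and 6.92, 6.32 and 4.98 FPKM at 3 h in ecap-2 libraries. For WT the values were 0.334, 0.297 and 0.138 FPKM at 0 h, 3.63, 3.63 and 2.72 at 1 h and 1.45, 1.06 and 0.803 FPKM at 3 h. The genotypes did not overlap at any time, and the log2 difference was 2.19 ± 0.15, adjusted p = 2.5e-08 at 1 h and 1.75 ± 0.15, adjusted p = 1.2e-07 at 3 h. AT3G22250 measured 0.935, 0.924 and 0.769 FPKM at 0 h, 58.9, 59.01 and 52.7 at 1 h and 19.98, 19.3 and 16.1 FPKM at 3 h in ecap-2. WT seedlings gave 0.744, 0.738 and 0.347 FPKM at 0 h, 18.8, 24.1 and 23.6 at 1 h and 9.33, 11.1 and 11.1 FPKM at 3 h. It differed by 1.33 ± 0.12, adjusted p = 3.4e-07 at 1 h. GTR1 was higher in ecap-2 by 0.51 ± 0.12, adjusted p = 0.0027 at 0 h, 1.01 ± 0.12, adjusted p = 8.9e-06 at 1 h and 1.01 ± 0.12, adjusted p = 3.5e-06 at 3 h. AT4G08170, an inositol trisphosphate kinase gene, measured 10.03, 7.22 and 8.92 FPKM at 0 h, 84.98, 86.05 and 77.2 at 1 h and 19.6, 23.1 and 21.2 FPKM at 3 h in ecap-2. In WT it measured 7.67, 8.24 and 6.73 FPKM at 0 h, 41.9, 42.5 and 43.1 at 1 h and 15.9, 16.3 and 14.97 FPKM at 3 h. It differed by 0.94 ± 0.09, adjusted p = 1.3e-06 at 1 h.

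Other single genes were also higher in ecap-2, while the redox genes went both ways. Of the 5 ascorbate and redox genes, 1 was higher and 2 lower at 0 h, 1 and 1 at 1 h, and 2 and 1 at 3 h. GSTU5 and MDHAR were those lower at 0 h, and VTC5 was the one lower at 1 and 3 h. The 0 h calls, and that of VTC5 at 3 h, each ended without some single libraries. MSRB7 differed by 1.11 ± 0.15, adjusted p = 4.2e-05 at 1 h and 1.33 ± 0.15, adjusted p = 3.3e-06 at 3 h. AT4G10500, an oxygenase gene, differed by 1.14 ± 0.17, adjusted p = 2.9e-05 at 3 h, and ASL5, a LOB-domain factor, by 0.96 ± 0.13, adjusted p = 3.1e-05 at 1 h. AT5G61890 differed by 1.33 ± 0.20, adjusted p = 7.3e-05 at 1 h and WRKY48 by 0.75 ± 0.14, adjusted p = 0.00048. Of the 5 JA genes, 0 passed between genotypes at 0 h, 3 were higher in ecap-2 at 1 h and 4 at 3 h. Over all tested genes 21.2% were higher and 23% lower at 0 h, 17.9% were higher at 1 h and 28.8% at 3 h. The 5 were not tested as a group. At 1 h the call of TAT3 ended without ecap-2 1 h replicate 1 or 2 or WT 1 h replicate 3, with adjusted p up to 0.081. That of FAMT ended without ecap-2 1 h replicate 3 or WT 1 h replicate 1 or 2, with adjusted p up to 0.057. Over all alternative settings the adjusted p at 1 h reached 0.196 for TAT3 and 0.304 for FAMT. At 3 h the calls of FAMT and CYP94B3 were also lost under some setting, with adjusted p up to 0.226 and 0.076. CYP94C1 differed by 0.59 ± 0.12, adjusted p = 0.0011 at 1 h and 0.81 ± 0.12, adjusted p = 3.2e-05 at 3 h. TAT3 differed by 1.18 ± 0.16, adjusted p = 1.2e-05 at 3 h. MDHAR differed by 0.73 ± 0.10, adjusted p = 8e-06 at 3 h and ERD7 by 0.58 ± 0.08, adjusted p = 1.4e-05. AT3G22275, the JAZ family protein, passed at none of the 3 times, with -0.04 ± 0.24, adjusted p = 0.91 at 1 h and -0.40 ± 0.24, adjusted p = 0.16 at 3 h.

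Lower in ecap-2 was, first, the bHLH gene AT4G37850. It measured 0, 0.06696 and 0.0229 FPKM at 0 h, 2.85, 3.53 and 3.18 at 1 h and 0.222, 0.395 and 0.219 FPKM at 3 h in ecap-2. WT libraries measured 0.824, 0.802 and 0.288 FPKM at 0 h, 11.6, 12.7 and 11.6 at 1 h and 5.26, 3.93 and 3.85 FPKM at 3 h. It was lower in ecap-2 by a log2 difference of -1.63 ± 0.13, adjusted p = 1.4e-07 at 1 h and -2.06 ± 0.13, adjusted p = 6e-09 at 3 h, and no library overlapped between genotypes. PP2-A5, a phloem lectin family gene, measured 2.78, 3.097 and 2.39 FPKM at 0 h, 18.4, 21.3 and 16.6 at 1 h and 9.01, 10.03 and 10.3 FPKM at 3 h in ecap-2. The WT values were 4.87, 4.26 and 6.17 FPKM at 0 h, 30.9, 33.6 and 38.8 at 1 h and 17.3, 17.3 and 17.9 FPKM at 3 h. It differed by -0.69 ± 0.12, adjusted p = 0.00016 at 0 h, -0.84 ± 0.12, adjusted p = 3e-05 at 1 h and -0.78 ± 0.12, adjusted p = 2.6e-05 at 3 h. The uncharacterized AT3G19200 differed by -1.21 ± 0.22, adjusted p = 0.00039 at 0 h and -1.84 ± 0.22, adjusted p = 4.3e-06 at 3 h. SAT32 differed by -0.67 ± 0.13, adjusted p = 0.00069 at 0 h and -1.02 ± 0.13, adjusted p = 8e-06 at 3 h.

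ERD10, a dehydrin, differed at 1 h, by -0.46 ± 0.06, adjusted p = 3.7e-05. VTC5 differed by -0.36 ± 0.08, adjusted p = 0.0022 at 1 h and AT5G10410 by -0.93 ± 0.12, adjusted p = 2.3e-05. The calcium-binding gene AT1G29025 differed by -0.97 ± 0.16, adjusted p = 0.00012 at 3 h. At 0 h LAC5 and AT5G02230 were lower in ecap-2, by -0.71 ± 0.09, adjusted p = 1.4e-05 and -0.65 ± 0.11, adjusted p = 0.00017. MC7 was lower by -0.53 ± 0.10, adjusted p = 0.00058. AT4G29930 was lower in ecap-2 by -0.87 ± 0.14, adjusted p = 0.00016 at 0 h. At 3 h its difference was 0.36 ± 0.14, adjusted p = 0.044, a call that ended without ecap-2 0 h replicate 2, WT 1 h replicate 1 or any single ecap-2 1 h, ecap-2 3 h or WT 3 h library, with adjusted p up to 0.116. AT1G64380, of the AP2/ERF type, was higher at 0 h by 0.56 ± 0.11, adjusted p = 0.00063.

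Whether the course itself differed between genotypes was tested as the difference of the response, ecap-2 minus WT. From 0 to 1 h, 4 of the 75 genes responded more strongly and 2 less strongly in ecap-2 (5.33% and 2.67%; all tested genes 0.168% and 0.146%). From 0 to 3 h, 8 and 1 did (10.7% and 1.33%; all tested genes 1.3% and 1.13%). From 1 to 3 h, 3 had a positive and 1 a negative difference (4% and 1.33%; all tested genes 1.44% and 1.79%). Rescaled to a common total the calls were 6 and 2 from 0 to 3 h and 0 and 4 from 1 to 3 h. Quantile normalization gave 2 and 0 from 1 to 3 h, and trimmed mean scaling 3 and 3. The rule bounded each genotype's response from below, which touches the first and the last of these. It also used the 0 h and 3 h means, so the difference from 0 to 3 h is not independent of how the genes were chosen either. The median difference of the 75 was 0.23 from 0 to 1 h, 0.20 from 0 to 3 h and 0.04 from 1 to 3 h, against -0.01, 0.01 and 0.02 for all tested genes. For single genes at unadjusted p under 0.05 the counts were 29, 26 and 19 (38.7%, 34.7% and 25.3%), against 7.82%, 19.1% and 22.4% of all tested genes.

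**Figure D5:**
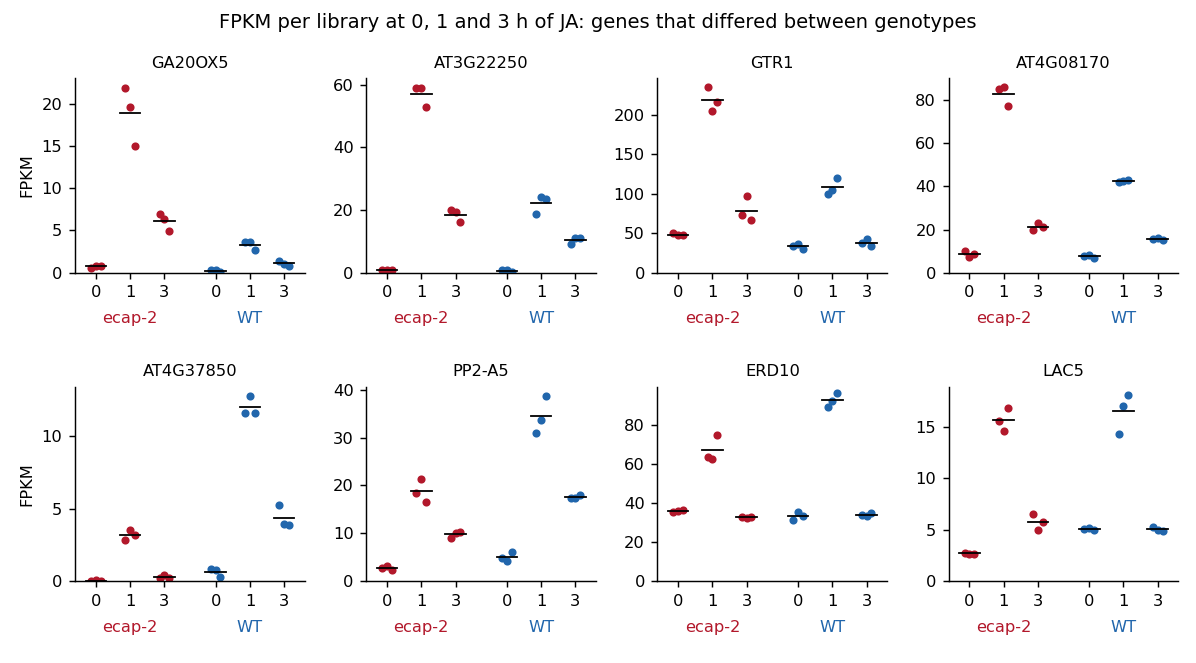
FPKM in each library (vertical axis, linear, from 0) at 0, 1 and 3 h on JA, ecap-2 in red on the left and WT in blue on the right of each panel; points are libraries and bars are means of 3. GA20OX5, AT3G22250, GTR1 and AT4G08170 stand higher in ecap-2 at 1 h, while AT4G37850, PP2-A5 and ERD10 stand lower.

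GA20OX5 responded more strongly in ecap-2, with a log2 difference of 1.70 ± 0.21, adjusted p = 0.0022 from 0 to 1 h and 1.26 ± 0.21, adjusted p = 0.0073 from 0 to 3 h. With a pseudocount of 0.1 in place of 1 these adjusted p were 0.30 and 0.11, and its 0 h levels were under 1 FPKM. AT3G22250 had 1.10 ± 0.17, adjusted p = 0.0088 from 0 to 1 h, and with that pseudocount an adjusted p of 0.34. MDHAR, whose 0 h level is well above 1 FPKM, had 1.02 ± 0.14, adjusted p = 0.0025 from 0 to 3 h, a call that held under every alternative run. LAC5 measured 2.78, 2.68 and 2.67 FPKM at 0 h, 15.6, 14.6 and 16.9 at 1 h and 6.51, 4.99 and 5.74 FPKM at 3 h in ecap-2 and 5.09, 5.21 and 4.93 FPKM at 0 h, 14.3, 17.01 and 18.1 at 1 h and 5.23, 4.996 and 4.92 FPKM at 3 h in WT. Its response from 0 to 3 h differed by 0.86 ± 0.13, adjusted p = 0.0045, and that of AT4G29930 by 1.23 ± 0.20, adjusted p = 0.0073, calls that also held under every alternative. LAC5 and AT4G29930 started lower in ecap-2. MDHAR also passed as lower in ecap-2 at 0 h, with means of 17.9 FPKM against 22.1 FPKM in WT. That 0 h call ended without ecap-2 0 h replicate 2 or WT 0 h replicate 1 or 2, with adjusted p up to 0.138. TAT3 had 1.10 ± 0.22, adjusted p = 0.018 from 0 to 3 h. Without ecap-2 0 h replicate 2 or ecap-2 3 h replicate 2 its adjusted p was 0.052 or 0.061, and with a pseudocount of 0.1 it was 0.19.

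On log2(FPKM + 1), AT4G37850 responded less strongly in ecap-2, with -1.40 ± 0.19, adjusted p = 0.0025 from 0 to 3 h. With a pseudocount of 0.1 the adjusted p was 0.16, and its 0 to 1 h difference reversed in sign. Its 0 h means were 0.030 FPKM in ecap-2 and 0.638 FPKM in WT, so the size of its response depends on the pseudocount. ERD10 measured 35.7, 36.2 and 36.3 FPKM at 0 h, 63.7, 62.7 and 75.1 at 1 h and 32.8, 32.7 and 32.95 FPKM at 3 h in ecap-2. WT libraries held 31.6, 35.6 and 33.2 FPKM at 0 h, 89.4, 92.6 and 96.4 at 1 h and 33.98, 33.6 and 34.9 FPKM at 3 h. The ecap-2 libraries lay well below the WT ones at 1 h, and the genotypes were close at 0 and 3 h. Its response from 0 to 1 h was smaller in ecap-2, with a difference of -0.57 ± 0.09, adjusted p = 0.013. Fitted on the compared groups alone, the adjusted p was 0.080.

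Lists of genes of related pathways place the 75 in the wider response, here at 1 h against 0 h and at 3 h against 1 h. Since the rule fixed both changes for the 75, they are left out of the counts. Genes set aside by name count as outside the 75 here, although the rule also fixed both changes for AOC3 and JAZ7. Over all tested genes 16.6% were higher and 17% lower at 1 h in ecap-2 and 17.3% and 16.7% in WT, and 20.9% and 19.7% at 3 h against 1 h in ecap-2 and 14.5% and 14.5% in WT. Of 13 tested genes of JA synthesis, 12 rose and 1 fell by 1 h in each genotype. By 3 h against 1 h, 5 rose and 7 fell in ecap-2, and 3 rose and 8 fell in WT. LOX2, a lipoxygenase of JA synthesis, averaged 24.5, 262 and 622 FPKM at 0, 1 and 3 h in ecap-2 and 5.599, 181 and 428 FPKM in WT, so it did not peak at 1 h. Besides CYP94C1 and CYP94B3, 7 JA turnover genes were tested. Of these, 6 rose and 0 fell by 1 h in each genotype, and from 1 to 3 h 2 rose and 4 fell in ecap-2 and 2 rose and 5 fell in WT. CYP94B1, a related enzyme outside the 75, averaged 3.96, 92.5 and 62.96 FPKM in ecap-2 and 11.5, 119 and 82.9 FPKM in WT, with a shallower decline. Besides AT3G22275, 10 JAZ genes were tested, JAZ7 included, and 8 rose and 0 fell by 1 h in each genotype. From 1 to 3 h 0 rose and 6 fell in ecap-2, and 1 rose and 7 fell in WT. Of 10 receptor, bHLH and NAC genes, 8 rose in ecap-2 and 7 in WT by 1 h and 0 fell, and from 1 to 3 h 1 rose and 4 fell in ecap-2 and 0 rose and 5 fell in WT.

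Of 15 tested ERF and DREB factors besides RRTF1 and AT1G22810, 5 rose and 2 fell by 1 h in ecap-2, and 8 rose and 2 fell in WT. Between 1 and 3 h 2 rose and 0 fell in ecap-2, and 2 rose and 2 fell in WT. Of 16 WRKY factors outside the 75, 8 rose and 4 fell by 1 h in ecap-2 and 6 rose and 4 fell in WT. Their changes from 1 to 3 h were 3 up and 4 down in ecap-2 and 1 up and 3 down in WT. WRKY40, not one of the 75, averaged 1.83, 14.3 and 6.72 FPKM in ecap-2 and 2.55, 13.3 and 9.87 FPKM in WT, missing the fold from 1 to 3 h in WT. Of 7 genes of the MAP kinase cascade besides MAPKKK15, 4 rose in ecap-2 and 6 in WT by 1 h and 0 fell. By 3 h against 1 h, 2 rose and 1 fell in ecap-2, and 2 rose and 2 fell in WT.

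The remaining lists were mixed at 1 h against 0 h. Of 10 C2H2 zinc finger factors 6 rose by 1 h in each genotype, 2 fell in ecap-2 and 3 in WT. Of 10 MYB factors 6 rose in each genotype, and 4 fell in ecap-2 and 3 in WT. Of 9 touch and calmodulin-like genes, 3 rose and 5 fell in ecap-2 and 2 rose and 4 fell in WT. TCH4, a touch-induced cell wall enzyme, averaged 54.3 FPKM at 0 h and 18.7 FPKM at 1 h in ecap-2, and 65.7 and 21.9 FPKM in WT. Of 16 auxin response genes 4 rose and 6 fell in ecap-2 and 4 rose and 7 fell in WT. Of 9 cytokinin type-A response regulators 0 rose and 5 fell in ecap-2 and 0 rose and 6 fell in WT. Of 8 ethylene synthesis genes 1 rose and 3 fell in ecap-2 and 1 rose and 4 fell in WT. Of 9 abscisic acid genes 1 rose and 1 fell in ecap-2, and 4 rose and 1 fell in WT. Of 9 clock genes 2 rose and 4 fell in each genotype. Of 6 ubiquitin ligases besides PUB22, 2 rose and 2 fell in ecap-2 and 1 rose and 2 fell in WT.

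Genes outside the 75 with the most similar course over the 6 group means were AT4G28840, AXS2, SUVH9, AT3G60860 and FAR1, with Pearson r of 0.998, 0.997, 0.996, 0.993 and 0.992 to the mean standardized course of the 75. They were similar in shape and shallower. AXS2 averaged 168.7, 305 and 199 FPKM at 0, 1 and 3 h in ecap-2 and 168.6, 309 and 204 FPKM in WT. The r rests on 6 group means and is a description.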

How the data were processed

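Each of the 18 libraries has 1 deposited table of FPKM per gene, as the file headers state. TopHat2, Cufflinks and TAIR10 are named in the submitters' processing notes, while versions and the strand setting are not given in the sources used here. Samples were grouped by genotype and time from the labels. The 75 genes were found by the stated rule on group means, and 40 of them have a symbol in the RefSeq TAIR10.1 gene table. The genes, the 10 functional groups and the 16 pathway lists (202 genes, 174 tested, 10 of them among the 75) were chosen with earlier results of these data known. Roles were grouped by hand from the annotation.

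Genes with at least 1 FPKM in at least 3 libraries were tested, 17835 or 80.3% of those listed, and all 75 passed, if only through their 1 h libraries. A linear model of log2(FPKM + 1) with 6 group means was fitted with limma 3.58.1 (R 4.3.3, statmod 1.5.0; trended, robust empirical Bayes, 12 residual degrees of freedom) and tested on simulated data. P-values are two-sided, Benjamini-Hochberg adjusted over all tested genes at 0.05 in each of 8 comparisons whose direction the rule did not set, although it used the same group means. Comparisons of 1 h with 0 h and with 3 h were used for pathway list genes outside the 75 and are given without a test for the 75. The labels do not tie replicate numbers to a shared source and not every same-numbered pair correlated above 0.1, so the numbers were not used as pairs in the main model. Named genes are the 5 of highest WT 1 h level with a symbol in each functional group, the 5 largest and smallest ratios, the 5 smallest p in each direction of each comparison, and genes next to the thresholds. Others named by value were chosen after their values were seen. Relative read depth, judged approximately from the smallest values of 2731 low genes against WT 3 h replicate 2, ran from 0.738 to 1.26. Alternatives were other pseudocounts, filters, scalings, moderation, libraries in the fit, a replicate block and leaving out each library. Plots were made in Python 3.11.15 using matplotlib 3.10.9.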

Additional observations from a re-analysis of the deposited data

Results flagged for a closer look

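The responses of some of the 75 genes differed between the genotypes by the test of the difference itself, ecap-2 minus WT. From 0 to 1 h there were 4 positive and 2 negative differences, from 0 to 3 h 8 and 1, and from 1 to 3 h 3 and 1. Their causes were not tested.

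From 0 to 1 h the log2 differences were 1.70 for GA20OX5, 1.10 for AT3G22250, 0.76 for AT4G08170 and 0.65 for LAC5, against -0.57 for ERD10 and -0.98 for AT4G37850. AT4G08170 (adjusted p = 0.019) lost its call without ecap-2 1 h replicate 1 (0.052), ecap-2 1 h replicate 2 (0.068) or WT 0 h replicate 2 (0.055). LAC5 (adjusted p = 0.041) lost it without any of 15 single libraries, with adjusted p up to 0.11. AT4G37850 (adjusted p = 0.032) lost it without any single ecap-2 0 h, ecap-2 1 h or WT 1 h library, 9 in all, with adjusted p up to 0.082. With a pseudocount of 0.1 the sign of its difference reversed.

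From 0 to 3 h they were 1.02 for MDHAR, 0.86 for LAC5, 1.23 for AT4G29930, 1.26 for GA20OX5 and 1.10 for TAT3, against -1.40 for AT4G37850. The other 3 were AT5G02230 (0.67 ± 0.15), MSRB7 (0.91 ± 0.22) and MSL9 (0.52 ± 0.13), and leaving out single libraries ended these calls in 7, 10 and 14 cases.

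From 1 to 3 h they were 0.41 for ERD10, 0.54 for MDHAR and 0.81 for AT4G29930, where the decline was smaller in ecap-2, and -0.53 for AT4G08170. Leaving out single libraries ended the call of ERD10 in 8 cases, of MDHAR in 10 and of AT4G29930 and AT4G08170 in 11 each.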

How the results depend on the processing

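Of 228 single gene calls, 78 were lost under at least 1 alternative and 1 reversed: the 0 to 1 h difference of AT4G37850, 0.55 with a pseudocount of 0.1. The count of 75 genes became 166 with a fold of 1.5, 22 with 2.5 and 37 with a pseudocount of 5, and 71 to 79 without single libraries, where 51 stayed each time. With a pseudocount of 5, ecap-2 3 h lower was 1, genotype 0 h higher 5, the 0 to 1 h difference higher 7, the 0 to 3 h difference higher 13, and the 1 to 3 h difference 5 higher and 6 lower. With 0.1 the 0 to 1 h difference lower was 1 and the 0 to 3 h difference higher 5. A mean filter of 5 FPKM gave 1 for ecap-2 3 h lower, 1 for the 0 to 1 h and 0 for the 0 to 3 h difference lower, and no filter gave 1 higher and 0 lower from 1 to 3 h. Rescaling to a common total gave 5 for ecap-2 3 h lower, 3 for genotype 0 h higher, 13 higher and 26 lower at 3 h, 2 lower from 0 to 3 h and 0 higher and 4 lower from 1 to 3 h. It moved the median of all genes by -0.17 (log2) for ecap-2 at 3 h against 0 h. Quantile normalization gave 0 and trimmed mean scaling 3 lower from 1 to 3 h, and trimmed mean scaling 2 lower from 0 to 3 h. Plain empirical Bayes gave 2 lower from 0 to 3 h, and 1 higher and 0 lower from 1 to 3 h. Fitting only the compared groups gave 0 for WT 3 h lower, 5 for genotype 0 h higher, 2 higher and 0 lower from 0 to 1 h and 4 lower from 1 to 3 h. The replicate block gave 4 lower from 1 to 3 h and kept the other counts within 1.5 times; 19 of 45 pairs of libraries with the same number correlated above 0.1 (range -0.16 to 0.32), and 12 of 18 libraries matched their own number best. Without single libraries, higher and lower counts ran over 50 to 55 and 1 to 3 (ecap-2 3 h), 46 to 52 and 0 to 2 (WT 3 h), 3 to 9 and 14 to 21 (genotype 0 h), 17 to 22 and 9 to 17 (1 h), 21 to 27 and 9 to 14 (3 h), 2 to 6 and 1 to 2 (0 to 1 h difference), 4 to 13 and 1 to 2 (0 to 3 h), and 0 to 4 and 0 to 3 (1 to 3 h). The cause of these shifts was not tested. Low genes are limited by unknown depth.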
